A study of Mus musculus with 20 samples.

Results

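Triglyceride synthesis and glyceroneogenesis were described through 9 genes: Pck1, Pcx, Gpd1 and Aqp7 on the side of glycerol phosphate supply, and Gpam, Agpat2, Lpin1, Dgat1 and Dgat2 on the side of acylation. They were chosen as a list of names, and all 9 were found among the 14776 genes of the deposited table. Messenger RNA of the epididymal white adipose tissue (eWAT) was measured by RNA sequencing in 20 male C57BL/6J mice that had been fasted overnight. The 6 NC mice received normal chow, the 7 HFD mice a diet whose fat supplied 60% of the energy, with saline by gavage, and the 7 SZ-A mice the same diet and Ramulus Mori (Sangzhi) alkaloids (SZ-A), an extract of mulberry twig. Feeding began at 6 weeks of age and lasted 20 weeks, and SZ-A was given at 400 mg/kg each day in the last 6 of them. No transgene or mutation was involved, and the mice of a group are separate animals. Expression is given as FPKM, a count of fragments divided by the length of the gene and the size of the library, so levels of different genes can be set side by side. The genes of the table held from 13567668 to 19388628 reads per mouse.

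Adipocytes store fatty acids by joining them to a glycerol backbone. During fasting much of that backbone comes from glyceroneogenesis, in which pyruvate carboxylase (Pcx) and cytosolic phosphoenolpyruvate carboxykinase (Pck1) turn pyruvate into triose phosphate, and glycerol-3-phosphate dehydrogenase (Gpd1) reduces this to glycerol 3-phosphate. Aqp7 is the channel through which glycerol crosses the adipocyte membrane. Glycerol 3-phosphate is then acylated by GPAT1 (Gpam) and AGPAT2 (Agpat2), dephosphorylated to diacylglycerol by lipin 1 (Lpin1) and acylated a last time by DGAT1 or DGAT2, enzymes that are unrelated in sequence.

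NC mouse 6 stood apart from the other libraries, and results that involve NC are given with and without it. Its 4 adipocyte markers (Adipoq, Plin1, Cidec and Fabp4) summed to 145 FPKM, against 3382 to 8113 FPKM in the other NC mice, 1004 to 4197 FPKM in HFD mice and 2831 to 8630 FPKM in SZ-A mice. The 6 of 18 listed epididymis markers that are in the table summed to 4374 FPKM in this mouse. They were also high in NC mouse 1 (2226 FPKM), SZ-A mouse 2 (1746 FPKM) and SZ-A mouse 7 (718.9 FPKM), while the HFD mice had between 15.74 and 32.99 FPKM. The label of adipose tissue therefore held by its markers in 19 mice, and in NC mouse 6 only weakly. The 13 macrophage markers summed to at most 1484 FPKM in NC mice. Their sum was between 3845 and 10060 FPKM in HFD mice and between 1896 and 5280 FPKM in SZ-A mice. By limma with an adjusted p under 0.05, 12 of the 13 rose in HFD against NC, where 41.1% of all genes were called. In SZ-A against HFD 12 fell, where 22.8% of all genes were called. The marker not called in either comparison was Lpl (adjusted p = 0.22 and 0.46). Its median in NC was 608 FPKM, where the median of the sum was 1006 FPKM. It was at 23.0 FPKM in NC mouse 6, which was low in adipocyte markers, and at 295.5 FPKM or more in the other NC mice. In RNA from whole tissue, fewer cells of a type and less RNA per cell cannot be told apart.

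Pck1 was the most abundant of the 9 genes in all 3 groups. It lies at chr2:173153048-173159273 (GRCm38, plus strand). Its level in NC was 409, 749, 1455, 1288 and 1169 FPKM in mice 1 to 5 and 30.9 FPKM in mouse 6. In HFD it ran from 54.0 FPKM through a median of 202 to 324 FPKM, below each of NC mice 1 to 5. In SZ-A it ran from 215 through a median of 504 to 1208 FPKM, and 5 of the 7 SZ-A mice were above the highest HFD mouse. The promoters of Pck1, Lpin1 and Gpam are shown because these 3 genes had the lowest values of the list in HFD relative to NC. They are the bases before each start in RefSeq on GRCm38.p6, without those inside the GENCODE annotation of the same gene. Overlap with other genes was not checked here. Capitals mark a match to a searched motif.
Pck1, chr2:173152823-173153047, plus strand: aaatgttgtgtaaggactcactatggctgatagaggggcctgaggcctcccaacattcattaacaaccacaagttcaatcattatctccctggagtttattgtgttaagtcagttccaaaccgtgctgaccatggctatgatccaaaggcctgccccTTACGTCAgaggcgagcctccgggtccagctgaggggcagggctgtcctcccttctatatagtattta
Lpin1, chr12:16610967-16611216, minus strand: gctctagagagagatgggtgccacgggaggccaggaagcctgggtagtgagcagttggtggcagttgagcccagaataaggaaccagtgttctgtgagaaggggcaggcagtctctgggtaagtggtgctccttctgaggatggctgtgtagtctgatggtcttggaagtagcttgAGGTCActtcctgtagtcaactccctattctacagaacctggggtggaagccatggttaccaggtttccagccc
Gpam, chr19:55127239-55127488, minus strand: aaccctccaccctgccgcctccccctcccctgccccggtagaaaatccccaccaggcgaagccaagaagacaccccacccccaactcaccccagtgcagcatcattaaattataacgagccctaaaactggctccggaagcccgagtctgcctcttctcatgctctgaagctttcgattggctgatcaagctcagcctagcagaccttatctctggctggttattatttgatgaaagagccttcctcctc
The motifs were searched on both strands in 250 bases before the start of the 6 members with an entry (Agpat2, Aqp7, Gpam, Lpin1, Pck1 and Pcx). In Pck1, TNACGTCA, a form of the cyclic AMP response element, began 93 bases before the start, and 2.52% of 32851 promoters hold it. In Lpin1, AGGTCA, the half-site of nuclear receptors, began 74 bases before the start, and 14.0% of promoters hold it. It also occurred in both windows of Aqp7 and, for Gpam, in the window of a second start but not in the one shown. The E-box CACGTG occurred in 1 window of Pcx, with a share of 6.02% over all promoters. The direct repeat of this half-site with 1 base between the copies, the form known as DR1, occurred in no window of these 6 genes and in 0.0335% of all promoters. A match is a description of letters, not a binding site.

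**Figure D1:**
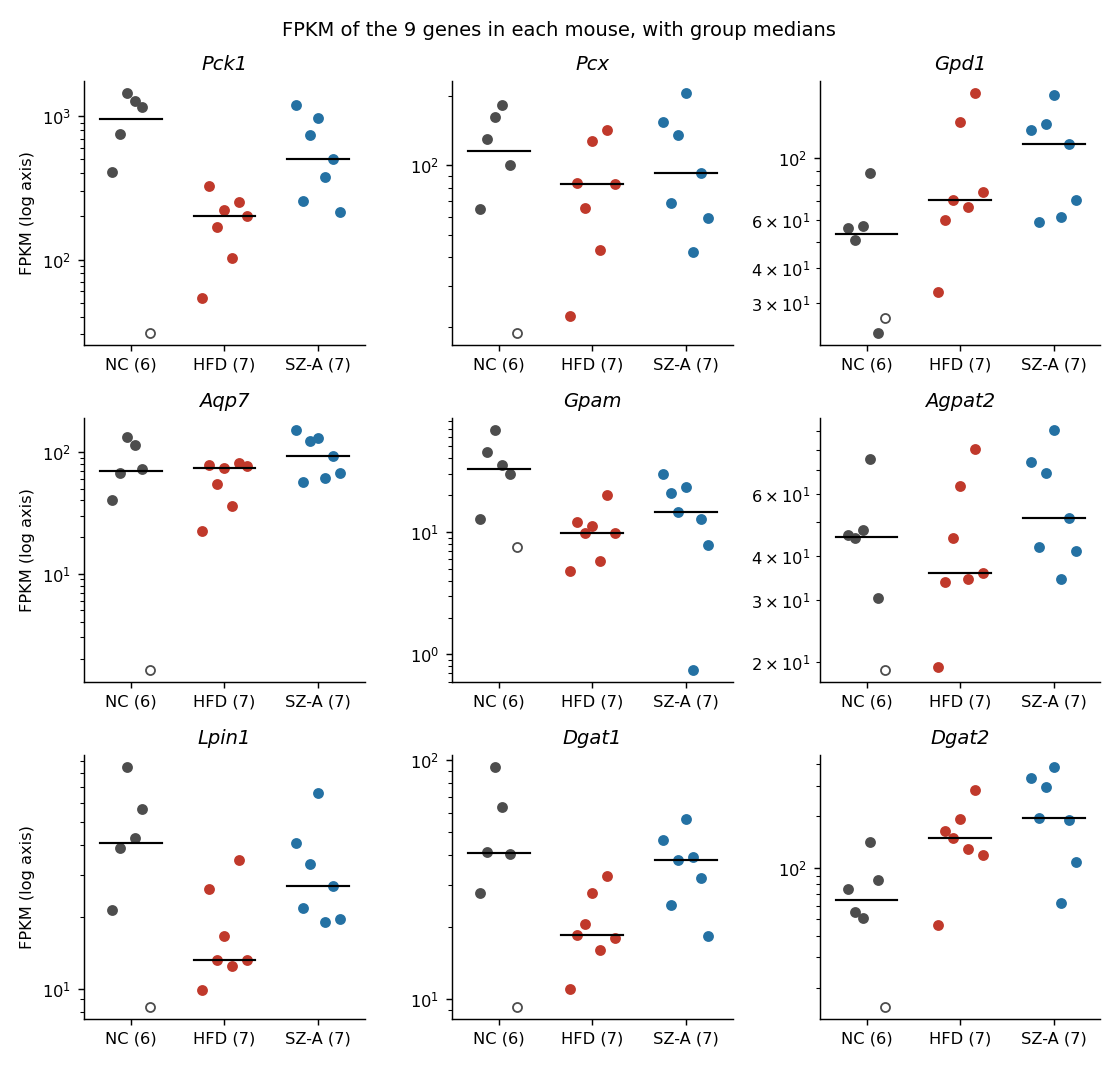
Level of the 9 genes in FPKM on log axes in each of 6 NC, 7 HFD and 7 SZ-A mice. Each point is a mouse, the bar is the group's median and the open circle is NC mouse 6. This mouse is lowest of all 20 for every gene but Gpd1 and Gpam, with Pck1 at 30.9 FPKM and Aqp7 at 1.63 FPKM. HFD mice lie below NC mice 1 to 5 for Pck1, and Dgat2 has its lowest median in NC.

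High-fat feeding was compared with chow to ask how the pathway stood in obese fat. Gpam, the mitochondrial enzyme of the first acylation, fell: it ran from 7.54 through a median of 32.5 to 68.0 FPKM in NC and from 4.78 through 9.88 to 20.02 FPKM in HFD. Its log2 fold change was -1.36 ± 0.45 (SE, limma, adjusted p = 0.026), with overlapping groups. The other 8 genes did not pass the test over all 13 mice. The 1 of 9 compares with 41.1% of all 14706 genes tested, 20.1% as lower, and the median log2 fold change was -0.34 over the 9 genes and -0.04 over all genes. The call of Gpam was lost without NC mouse 2, 3 or 4 or without HFD mouse 1 or 5, with adjusted p from 0.052 to 0.061 and log2 fold changes from -1.28 to -1.09. With all 3 groups in a shared fit, which called 40.8% of all genes, Gpam did not pass either (adjusted p = 0.061) and Dgat2 did (adjusted p = 0.05, just under the threshold).

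Without NC mouse 6, 4 of the 9 genes fell and none rose past the test, beside 45.2% of all genes tested and 22.6% as lower. Pck1 changed most, by -2.47 ± 0.44 (SE) on the log2 scale (adjusted p = 0.00052), and its groups no longer overlapped, as for 10.4% of all genes in that direction. Over all 13 mice the same difference was -1.66 ± 0.79 (adjusted p = 0.11). Gpam was at -1.69 ± 0.37 (adjusted p = 0.0025). Lpin1, the phosphatidate phosphatase of adipocytes, was at 21.4, 38.9, 84.4, 42.8 and 56.2 FPKM in NC mice 1 to 5 and 8.38 FPKM in mouse 6. In HFD it ran from 9.88 through a median of 13.2 to 34.6 FPKM. Its log2 fold change was -1.37 ± 0.34 without mouse 6 (adjusted p = 0.0053) and -0.99 ± 0.45 with it (adjusted p = 0.091). Dgat1 was at 27.6, 41.3, 93.1, 63.6 and 40.3 FPKM in NC mice 1 to 5 and at 9.25 FPKM in mouse 6. It ran from 10.96 through 18.4 to 32.6 FPKM in HFD. The difference was -1.27 ± 0.30 without mouse 6 (adjusted p = 0.0037) and -0.89 ± 0.42 with it (adjusted p = 0.10). These 4 genes include Pck1 of glyceroneogenesis and Dgat1 of the last acylation, but not the other genes named at these stages. Without mouse 6, Pcx was at -0.772 ± 0.415 (adjusted p = 0.15), and Dgat2 had a positive difference that did not pass the test.

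Dgat2 and Gpd1 had positive differences. Dgat2 ran from 15.4 through a median of 65.2 to 142 FPKM in NC and from 46.5 through 149 to 283 FPKM in HFD. Its log2 fold change of 1.22 ± 0.47 did not pass the test (adjusted p = 0.051), was past it without NC mouse 4 (1.47, adjusted p = 0.023) or HFD mouse 1 (1.48, adjusted p = 0.017), and was 0.85 ± 0.38 without NC mouse 6 (adjusted p = 0.083). Gpd1 ran from 23.4 through 53.4 to 88.4 FPKM in NC and from 32.9 through 70.6 to 173 FPKM in HFD, a difference of 0.75 ± 0.38 (adjusted p = 0.13). Pcx, Aqp7 and Agpat2 had differences of -0.34 ± 0.53, 0.33 ± 0.76 and 0.02 ± 0.34 (adjusted p = 0.64, 0.76 and 0.98). For Agpat2 the 95% interval was -0.71 to 0.74, while for Aqp7, where NC mouse 6 had 67 reads, it was -1.30 to 1.95. Without that mouse Aqp7 was at -0.49 ± 0.36 (adjusted p = 0.28) and Agpat2 at -0.19 ± 0.31 (adjusted p = 0.63). Gpd1 was then at 0.599 ± 0.385 (adjusted p = 0.22).

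**Figure D2:**
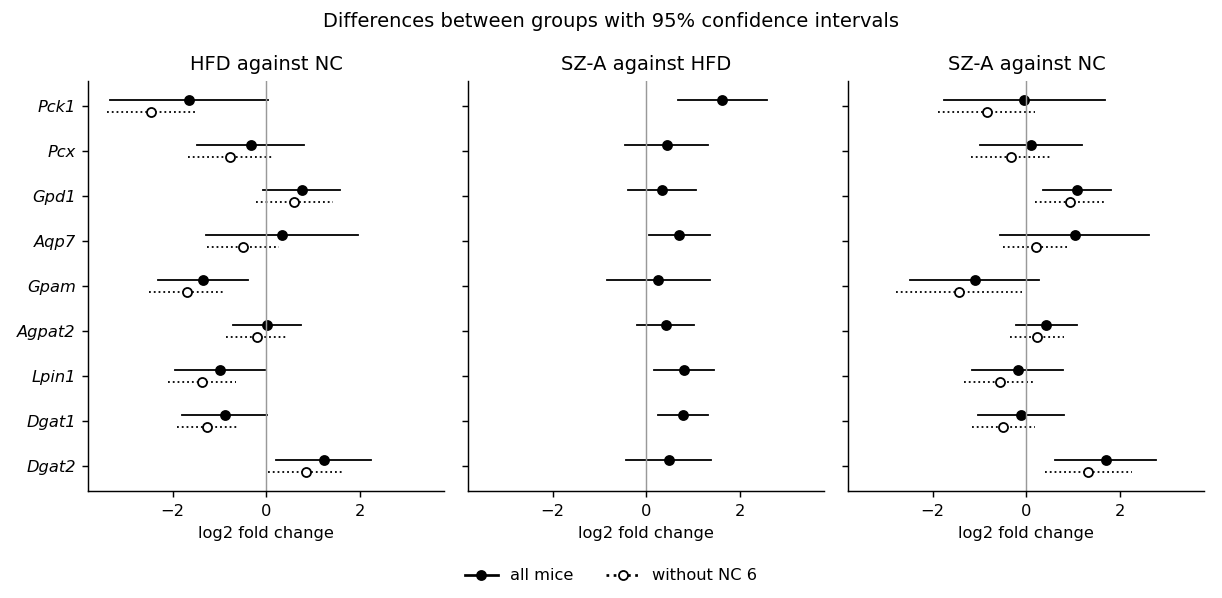
Log2 fold change of each gene on the log2(FPKM + 1) scale with its 95% confidence interval in the 3 comparisons. Filled circles use all mice and open circles leave out NC mouse 6, which moves Pck1 in HFD against NC from -1.66 to -2.47. In SZ-A against HFD all 9 values are above 0.

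SZ-A was compared with saline on the same diet to ask what the treatment changed. Pck1 and Dgat1 rose, and the other 7 genes had positive differences that did not pass the test. Pck1 was higher by 1.62 ± 0.45 (SE) on the log2 scale, about 3.07-fold (limma, adjusted p = 0.018), and stayed past the test when any of the 14 mice was left out, between 1.35 and 1.83. Dgat1 ran from 18.3 through a median of 37.9 to 56.7 FPKM in SZ-A, and 4 of these 7 mice were above the highest HFD mouse. It rose by 0.78 ± 0.25 (adjusted p = 0.037). That call was lost without HFD mouse 1, 2, 3, 5 or 7 or SZ-A mouse 1, 3 or 4, where the difference was between 0.65 and 0.80 and the adjusted p between 0.059 and 0.078. The 2 of 9 genes compare with 22.8% of all 14695 genes tested, 9.47% as higher, and the median log2 fold change was 0.47 over the 9 genes and 0.03 over all genes. With all 3 groups in a shared fit, which called 14.2% of all genes, neither passed (adjusted p = 0.12 for Pck1 and 0.16 for Dgat1).

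Lpin1 ran from 19.03 through a median of 26.9 to 65.9 FPKM in SZ-A, a difference of 0.81 ± 0.30 from HFD (adjusted p = 0.068). Aqp7 was at 56.7 to 151 FPKM in SZ-A and at 22.7 to 82.0 FPKM in HFD (0.71 ± 0.31, adjusted p = 0.11). Dgat2 ran from 62.5 through 195 to 385 FPKM in SZ-A, and its difference from HFD was 0.47 ± 0.42 (adjusted p = 0.43). The differences of Pcx, Agpat2 and Gpd1 were 0.44 ± 0.42, 0.41 ± 0.29 and 0.33 ± 0.34 (adjusted p = 0.46, 0.31 and 0.50). Gpam ranged from 0.749 to 29.5 FPKM in SZ-A, with its lowest value, on 70 reads, in SZ-A mouse 5, and differed from HFD by 0.26 ± 0.52 (adjusted p = 0.75). Without that mouse the difference was 0.73 and did not pass the test. Thus Gpam, which had fallen on the diet, had a median of 14.7 FPKM with SZ-A, against 9.88 in HFD and 32.5 in NC, and its 95% interval of -0.84 to 1.36 against HFD includes changes in either direction.

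SZ-A on the high-fat diet was also set against chow, and this comparison shares its mice with the other ones. None of the 9 genes passed the test, beside 4.61% of all 14718 genes, and none did without NC mouse 6, beside 5.5%. Dgat2 and Gpd1 had an unadjusted p under 0.05, with differences of 1.69 ± 0.50 (limma, adjusted p = 0.077) and 1.08 ± 0.34 (adjusted p = 0.094). Voom on reads recovered from the FPKM also called 0 of the 9, beside 4.15% of all genes. The fit of all 3 groups, with 10.4% of genes past the test, called Dgat2 (adjusted p = 0.03). Array quality weights, which give deviating libraries less weight, called Dgat2 and Gpd1 (adjusted p = 0.0029 and 0.01), beside 17.9% of all genes. Dgat2 also passed without SZ-A mouse 5 (1.96, adjusted p = 0.032). Pck1 was at -0.04 ± 0.80 (adjusted p = 0.98) and at -0.85 ± 0.48 without NC mouse 6 (adjusted p = 0.38). Its median was 504 FPKM in SZ-A and 1169 FPKM in NC mice 1 to 5, a difference that did not pass the test. Gpam was at -1.10 ± 0.64 (adjusted p = 0.37). Lpin1, Dgat1, Pcx, Agpat2 and Aqp7 lay between -0.19 and 1.03, with adjusted p from 0.47 to 0.94. Without NC mouse 6, Dgat2 was at 1.32 ± 0.43 (adjusted p = 0.10) and Gpd1 at 0.93 ± 0.34 (adjusted p = 0.15). Gpam was then at -1.44 ± 0.62 (adjusted p = 0.23). Lpin1 was then at -0.57, Dgat1 at -0.49, Pcx at -0.34, Agpat2 at 0.22 and Aqp7 at 0.21. For these genes the adjusted p was from 0.43 to 0.79.

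The balance between isozymes, and between Gpd1 and Gpd2, which are not isozymes, was measured within each mouse. There library scaling largely cancels except for genes near 1 FPKM such as Lpin2. Exact two-sided permutation tests of 6 ratios in 3 comparisons were adjusted over the 18 tests. The ratio of Dgat2 to Dgat1 separated HFD from NC without overlap, as 20.5% of single genes did over the same mice. Dgat2 was 0.549 to 2.72 times Dgat1 in NC (median 1.89) and 4.24 to 8.93 times in HFD (median 7.21). On the log2(FPKM + 1) scale the ratio was 0.64 ± 0.81 (SD, n = 6) in NC and 2.76 ± 0.38 (SD, n = 7) in HFD, a difference of 2.11 (exact permutation p = 0.00058, the smallest these groups can give, adjusted 0.011). It was 2.12 without NC mouse 6 (adjusted exact permutation p = 0.023), and it kept its call with each of the 13 mice left out. In SZ-A the ratio was 1.59 to 7.88 (median 6.80), and SZ-A mouse 5, at 1.59, was the only SZ-A mouse inside the NC range. SZ-A differed from NC by 1.80 (adjusted exact permutation p = 0.028), a call lost without NC mouse 2 or 3 (adjusted p = 0.061 and 0.055). It differed from HFD by -0.31 ± 0.34 (SE, adjusted exact permutation p = 0.64).

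Gpd1 was set against Gpd2, the mitochondrial dehydrogenase that oxidises glycerol 3-phosphate. The ratio ran from 2.26 through a median of 6.65 to 12.4 in NC, from 8.32 through 18.6 to 44.7 in HFD and from 10.6 through 26.5 to 32.6 in SZ-A. On the log2 scale HFD exceeded NC by 1.46 ± 0.46 (SE, adjusted exact permutation p = 0.037) and SZ-A exceeded NC by 1.61 ± 0.42 (adjusted exact permutation p = 0.028). The HFD call was lost without NC mouse 2, 3, 5 or 6 or HFD mouse 3, 4, 5, 6 or 7, with differences of at least 1.176 and adjusted p of 0.055 to 0.077. The SZ-A call was lost without NC mouse 2 or 3 (1.61 and 1.65, adjusted p = 0.057 and 0.055). Lpin1 was 1.62 to 48.4 times Lpin2, the lipin more abundant in liver, in NC, 2.30 to 12.3 times in HFD and 6.21 to 32.2 times in SZ-A. HFD was below NC by -1.56 (adjusted exact permutation p = 0.13), and by -2.15 without NC mouse 6 (adjusted p = 0.023). SZ-A was above HFD by 1.197 ± 0.41 (adjusted exact permutation p = 0.050, just over the threshold), and passed without HFD mouse 6 or SZ-A mouse 2 or 5 (1.41, 1.33 and 1.34, adjusted p = 0.021 to 0.04). Ratios of Pck1 to Pck2, Gpam to Gpat4 and Agpat2 to Agpat1 did not pass in any comparison, with adjusted exact permutation p from 0.13 to 0.80. They did not pass without NC mouse 6 either. There Pck1 to Pck2 in HFD against NC was at -1.67 (adjusted exact permutation p = 0.0552), against -0.965 with that mouse (adjusted p = 0.545).

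**Figure D3:**
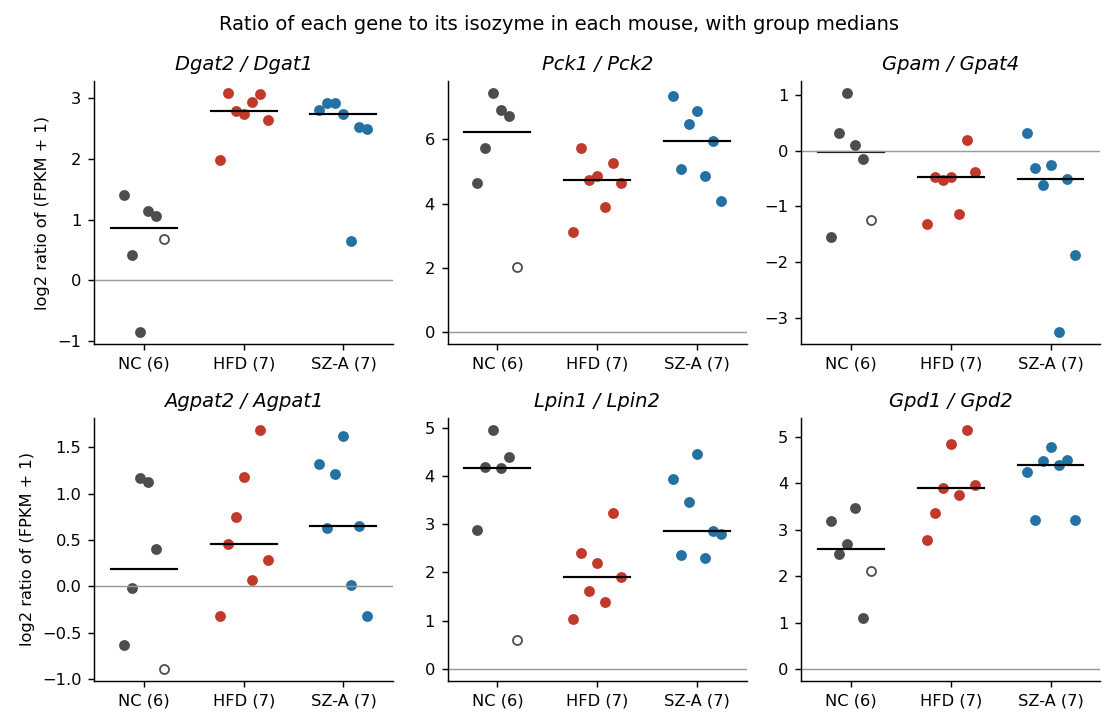
Log2 ratio of (FPKM + 1) for 6 pairs of genes in each mouse, with the group's median as a bar and NC mouse 6 as an open circle. The pairs are isozymes except Gpd1 and Gpd2. For Dgat2 to Dgat1 the 7 HFD mice (1.99 to 3.09) lie above all 6 NC mice (-0.85 to 1.41), and SZ-A mouse 5 (0.66) lies within the NC range.

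The 9 genes moved with the adipocyte marker level, each to its own degree. Across 20 mice the correlation of log2 values with the mean of the 4 adipocyte markers was 0.98 for Aqp7, 0.89 for Pcx, 0.88 for Pck1 and 0.49 for Gpam, and in the 14 mice on the high-fat diet it was 0.99 for Aqp7 and 0.60 for Gpam. These points share libraries and tissue makeup, and NC mouse 6 lies far from the rest. Among the 9 genes the 36 pairwise correlations ran from 0.14 to 0.93 with a median of 0.70 over 20 mice, and from 0.09 to 0.92 with a median of 0.66 without that mouse. Of the 12 adipocyte markers listed, Lep rose and Cfd and Retn fell in HFD against NC over all mice. There 41.1% of all genes were called and 20.1% as lower. Without NC mouse 6, 7 of the 12 fell and 1 rose, with a median of -0.97, where 45.2% of all genes were called and 22.6% as lower. In SZ-A against HFD 2 of the 12, Cfd and Retn, rose, beside 9.47% of all genes, and the median was 0.86. The mean log2 level of the 4 markers was 9.09 ± 2.21 (SD, n = 6) in NC, 9.97 ± 0.49 without NC mouse 6, 9.04 ± 0.79 (n = 7) in HFD and 9.92 ± 0.72 (n = 7) in SZ-A. None of the 4 passed the test in SZ-A against HFD, with adjusted p from 0.071 to 0.25. A fit was made with that level as a covariate. NC mouse 1 alone of the NC mice lay within the marker range of the HFD mice, with NC mice 2 to 5 above it and NC mouse 6 below it. In HFD against NC this fit therefore rests on the slope assumed between them. The level ran from 7.54 to 9.73 in HFD mice and from 9.14 to 10.75 in SZ-A mice. With that partial overlap, the fit of SZ-A against HFD also rests in part on the assumed slope.

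With the adipocyte marker level in the fit, Pck1 passed the test in all 3 comparisons. It was lower in HFD than in NC by -1.62 ± 0.18 (SE, limma, adjusted p = 1.1e-05), and by -1.43 ± 0.23 without NC mouse 6 (adjusted p = 0.00053). It was higher in SZ-A than in HFD by 0.61 ± 0.18 (adjusted p = 0.042), against 1.62 without the covariate. SZ-A was below NC by -0.85 ± 0.23 (adjusted p = 0.04), and by -0.79 ± 0.21 without NC mouse 6 (adjusted p = 0.042). Relative to the 4 markers, log2 Pck1 was between -0.58 and 0.32 in NC mice, mouse 6 included, between -1.87 and -1.13 in HFD mice and between -1.52 and -0.46 in SZ-A mice, a measure added after seeing the data. Dgat2 was higher than in NC in HFD (1.24 ± 0.26, adjusted p = 0.0013) and in SZ-A (1.28 ± 0.33, adjusted p = 0.031), and SZ-A and HFD differed by -0.40 ± 0.27 (adjusted p = 0.31). Without NC mouse 6 the former values were 1.61 and 1.37 (adjusted p = 0.0015 and 0.017). Dgat1 no longer passed in SZ-A against HFD (0.29 ± 0.18, adjusted p = 0.27), and Pcx was lower there by -0.53 ± 0.15 (adjusted p = 0.032), against 0.44 without the covariate. Aqp7, the gene that followed the markers most closely, was at -0.02 ± 0.10 in SZ-A against HFD, and in this fit 6 of the 9 genes had negative differences there, where all 9 were positive without the covariate. This fit called 6 of the 9 genes in HFD against NC, Gpam, Lpin1, Dgat1, Pck1, Dgat2 and Aqp7, beside 52.6% of all genes. Without NC mouse 6, Lpin1 and Aqp7 no longer passed (adjusted p = 0.075 and 0.094) and Gpd1 did, at 1.31 ± 0.35 (adjusted p = 0.012). The fit called 2 of 9 in SZ-A against HFD and 2 of 9 in SZ-A against NC, beside 13.8% and 7.85%.

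**Figure D4:**
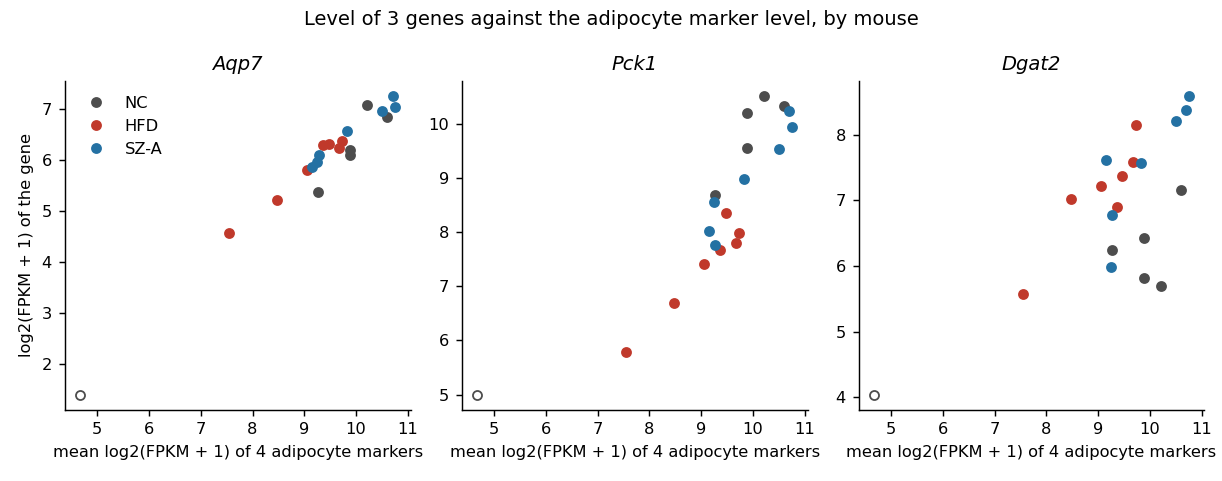
Log2(FPKM + 1) of Aqp7, Pck1 and Dgat2 against the mean log2(FPKM + 1) of Adipoq, Plin1, Cidec and Fabp4 in each of 20 mice, coloured by group, with NC mouse 6 as an open circle. Aqp7 lies near a line through all groups (r = 0.98), while NC mouse 1 (9.26) is the only NC mouse within the marker range of the HFD mice (7.54 to 9.73), where it lies above every HFD mouse for Pck1 and below the HFD mice on either side of it for Dgat2.

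Ordered by mean log2 level, Pck1 came first and Gpam last in all 3 groups. Pck1 was above the next gene, Pcx, in 6 of 6 NC mice, and above Dgat2 in 5 of 7 HFD and 7 of 7 SZ-A mice. Dgat2 was above Gpd1 in all 7 HFD and all 7 SZ-A mice, but in 4 of 6 NC mice. Gpd1, Pcx and Aqp7 followed in SZ-A and were not separated, since Gpd1 exceeded Pcx in 3 of 7 mice and Pcx exceeded Aqp7 in 4 of 7. Agpat2 lay above Dgat1 in 7 of 7 HFD, 6 of 7 SZ-A and 4 of 6 NC mice. Gpam lay below Lpin1 in every HFD and SZ-A mouse and in 5 of 6 NC mice.

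Of 69 other genes of the pathway, in a list written with earlier results of these data known, 62 were in the table. In HFD against NC 10 rose and 18 fell, with a median log2 fold change of -0.27, beside 41.1% of all genes called and a median of -0.04. Without NC mouse 6, 11 rose and 24 fell, beside 45.2% of all genes. Over all 13 mice, glycerol phosphate supply had 1 rise and 9 falls among 19 genes, acylation and dephosphorylation 3 and 3 among 18, the phospholipid branch 3 and 4 among 14, acyl-CoA ligases 1 and 2 among 4 and diacylglycerol kinases 2 and 0 among 7, where 20.1% of all genes were called lower. The falls with the smallest adjusted p were Pdk2, an inhibitory kinase of pyruvate dehydrogenase (-2.29 ± 0.21, adjusted p = 2.6e-06), Gpat4, the acyltransferase of the endoplasmic reticulum (-1.01 ± 0.15, adjusted p = 0.00015), the glycerol channel Aqp9 (-3.77 ± 0.66, adjusted p = 0.00055) and Gpd2 (-0.70 ± 0.14, adjusted p = 0.0014). The leading rises were Pcyt1a, of phosphatidylcholine synthesis (1.52 ± 0.18, adjusted p = 2.5e-05), the diacylglycerol kinase Dgkz (1.64 ± 0.20, adjusted p = 3.5e-05), Agpat4 (1.72 ± 0.27, adjusted p = 0.0002) and the acyl-CoA ligase Acsl5 (0.72 ± 0.13, adjusted p = 0.00079). With epididymis markers as a covariate, glycerol phosphate supply had 5 rises and 3 falls among the 19 genes. The median was then -0.11, against -0.61 without the covariate. That fit called 2135 of all genes higher and 1899 lower. The summed epididymis markers of NC (89.4 to 4374 FPKM) and HFD (15.74 to 32.99 FPKM) did not overlap, so their level and the diet cannot be told apart for any of these genes.

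In SZ-A against HFD 9 of the 62 genes rose and 6 fell, with a median of 0.15, and 47 did not pass, where 22.8% of all genes were called and the median over all genes was 0.03. Pdk2 (1.26 ± 0.19, adjusted p = 0.00082) and Gpat4 (0.59 ± 0.14, adjusted p = 0.0075) rose after having fallen on the diet, and Pcyt1a, which had risen, fell by 0.84 on the log2 scale (adjusted p = 0.0079). The other named rises were Ptdss2 of phosphatidylserine synthesis (0.35 ± 0.10, adjusted p = 0.017) and Pcyt2 of phosphatidylethanolamine synthesis (0.63 ± 0.17, adjusted p = 0.018). The other named falls were Agpat5 (-0.30 ± 0.09, adjusted p = 0.022), the diacylglycerol kinase Dgkq (-0.30 ± 0.10, adjusted p = 0.036) and the transaminase Got1 (-0.60 ± 0.20, adjusted p = 0.038). In both comparisons HFD is the shared group, so a value that is extreme in HFD by chance moves both. In SZ-A against NC 60 of the 62 did not pass, where 4.61% of all genes did pass. Agpat4 was higher (1.16 ± 0.30, adjusted p = 0.045) and Pdk2 lower (-1.03 ± 0.23, adjusted p = 0.018) in SZ-A. Both values are over all mice. Agpat4 was at 0.559 FPKM in NC mouse 6 and at 2.63 FPKM or more in the other NC mice. Without NC mouse 6, 57 of the 62 did not pass, beside 5.5% of all genes called.

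Among the 12441 genes whose mean level reached 1 FPKM, those most like the mean of the 9 genes over 20 mice were Aldh1l1 (r = 0.98), Slc2a4, the insulin-regulated glucose transporter (0.97), Ctif (0.97), Gstz1 (0.96) and Ptprm (0.96). For Pck1 alone the nearest were Gpat3, Rbpms2 and Ctdspl (0.98, 0.98 and 0.97). Those nearest to Dgat1 were Cluh, Bscl2, which encodes seipin, and Acacb (0.97, 0.95 and 0.94), and those nearest to Dgat2 were Cdsn, Rtn4rl1 and Gpt (0.97, 0.96 and 0.95). No gene stood in both lists of 3, and how often this holds for other pairs of genes was not counted. Aqp7 was nearest to Cavin2, Ghr and Aqp1 (0.98 each) and Lpin1 to Lrrc58, Gpat3 and Pde3b (0.95 each). These correlations describe the same 20 libraries, NC mouse 6 included.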

How the data were processed

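RNA of 20 mice was analysed. The authors isolated poly(A) RNA, sequenced 150 bp pairs, aligned them to GRCm38 with HISAT2 2.0.5 and compared groups with DESeq2 1.20.0; featureCounts 1.5.0-p3 stands in the submitters' processing notes. They deposited FPKM for 14776 genes, all above 0 in every mouse. The study's text gives 7 mice per group and the labels 6 for NC. Because FPKM are not counts, log2(FPKM + 1) was tested here with limma 3.58.1 (R 4.3.3; lmFit, eBayes with trend) on genes whose mean reached 0.1 FPKM, 2 groups per fit, with Benjamini-Hochberg adjustment over all genes; past the test means an adjusted p under 0.05. Folds are on that log2 scale and understate changes of low genes. Reads were recovered from FPKM and GENCODE M21 exon lengths, and 95.9% to 96.3% of values under 1000 reads were whole within 0.01. Voom on them was an alternative. On simulated data in which 200 genes differed by 2 on the log2 scale, the steps called all 200 in each comparison with 6 to 15 false calls. In the measured mice, Pck1 in HFD against NC differed by -1.66 ± 0.79 (SE) and was not called. Its level in NC was 850 ± 554 FPKM (SD, n = 6). How many changes are called or missed at such a spread between mice was not tested. Intervals cover the spread between mice. Other alternatives were pseudocounts, filters, scaling, weights, marker covariates, a replicate block and leaving out each mouse; those that divide by the adipocyte marker level, and those combined with leaving out NC mouse 6, were chosen after seeing the data. The members and lists were chosen with earlier results of these data known. Named were all members, genes of the ratios, in each comparison the 4 rises and 4 falls with the smallest adjusted p among other pathway genes past the test, and the genes most alike in pattern. Python 3.11.15, pandas 2.3.3 and matplotlib 3.10.9 were used.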

Additional observations from a re-analysis of the deposited data

Results flagged for a closer look

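In 45 groups of 6 or 7 mice tested for a mouse far from the rest (9 genes and 6 ratios in 3 groups), 4 held one, where chance gives about 1 in 20. NC mouse 6 was far below the other NC mice for Pck1, at 30.9 FPKM against 409 or more, and for Aqp7, at 1.63 FPKM against 40.5 or more, beside its low adipocyte markers. The log2 ratio of Dgat2 to Dgat1 was 1.99 in HFD mouse 1, below 2.65 to 3.09 in the other HFD mice; this mouse also had the lowest adipocyte markers (1004 FPKM) and the highest macrophage markers (10060 FPKM) of its group. The same ratio was 0.66 in SZ-A mouse 5, below 2.503 to 2.93 in the other SZ-A mice, and this mouse had the highest macrophage markers of its group (5280 FPKM). The part of these markers in the ratios was not tested.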

How the results depend on the processing

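The count of the 9 genes past the test in HFD against NC was 1, and 2 with median-ratio scaling, 5 with array quality weights, 6 with adipocyte markers as a covariate, 4 with epididymis markers, 0 with macrophage markers, 0 with a log2 fold change above 1.5 as well and 0 with the replicate block, where Gpam had an adjusted p of 0.063. Leaving out 1 mouse gave 0 to 4. Of all 14706 genes the main fit called 3091 higher and 2956 lower, and 799 and 373 with the log2 limit. The calls were 3124 and 2928 with median-ratio scaling, 3576 and 3710 with array quality weights and 3785 and 3949 with adipocyte markers. They were 2135 and 1899 with epididymis markers, 228 and 328 with macrophage markers and 2423 and 2000 with the replicate block. With NC mouse 6 left out the count of the 9 was 5 with the adipocyte covariate, 4 with array quality weights and 3 per adipocyte marker level. Per adipocyte marker level over all mice it was 0. Of all 14697 genes without that mouse, these fits called 3084 higher and 2908 lower, 3544 and 3650, and 4983 and 138. Per adipocyte marker level over all mice, 163 and 25 of 14706 genes were called. In SZ-A against HFD the count of 2 became 7 with array quality weights and 0 with all 3 groups in the fit. It was 1 in that fit without NC mouse 6, 0 with macrophage markers and 0 per adipocyte marker level. It was 1 with the log2 limit, 1 with the replicate block and 1 to 3 without 1 mouse. Of all 14695 genes the main fit called 1392 higher and 1957 lower, and array quality weights called 3214 and 3189. The fit of all 3 groups called 725 and 1364, and 1172 and 1832 without NC mouse 6. Macrophage markers called 0 of all genes, the adipocyte marker level 4 and 2214, the log2 limit 45 and 82 and the replicate block 1029 and 1590. In SZ-A against NC the count of 0 became 1 with all 3 groups. It was 2 with array quality weights with or without NC mouse 6, and 2 with the adipocyte covariate. It was 3 with that covariate and without NC mouse 6, and 0 to 1 without 1 mouse. Of all 14718 genes the main fit called 611 higher and 67 lower, and the fit of all 3 groups 1153 and 374. Array quality weights called 1713 and 926, and 1356 and 592 without NC mouse 6. The adipocyte covariate called 936 and 220, and 971 and 261 without that mouse. Dividing by the adipocyte level shifts the median of all genes by -0.85 in SZ-A against HFD, where 8 of the 9 genes were then negative and Dgat1, called before, reversed to -0.093, and by 0.88 in HFD against NC without NC mouse 6. With the adipocyte covariate in SZ-A against HFD 6 of the 9 genes were negative, and Pcx, past the test, reversed to -0.53. Neither macrophage nor epididymis levels of NC and HFD overlap, so those covariates and the diet cannot be told apart. The ratios past the test were 2, 0 and 2 in the 3 comparisons; in SZ-A against HFD 1 passed with pseudocounts of 0.1 or 0.01 or none. Leaving out 1 mouse gave 1 to 2, 0 to 1 and 0 to 2. Replicate numbers share no animal: correlations of same-numbered mice ran from -0.28 to 0.30, -0.39 to 0.37 and -0.41 to 0.58, and 1 or 2 mice correlated best with their own number. Other causes were not tested. Pseudocounts, filters, quantile normalization and voom kept the counts of genes.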

Other observations

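Gpat3 and Acsl1 are described here although the rule for naming genes did not pick them by rank; both were chosen after their values were seen. Gpat3, a microsomal acyltransferase of the same step as Gpam, ran from 0.705 through a median of 20.4 to 30.9 FPKM in NC, from 1.59 through 4.59 to 7.09 FPKM in HFD and from 4.10 through 9.94 to 24.1 FPKM in SZ-A. It rose in SZ-A against HFD by 1.09 ± 0.36 (SE) on the log2 scale (limma, adjusted p = 0.039). In HFD against NC it was at -1.32 ± 0.57 (adjusted p = 0.081), and at -1.92 ± 0.31 without NC mouse 6 (adjusted p = 0.00024). Acsl1, the long-chain acyl-CoA ligase of adipocytes, had a median of 113 FPKM in NC, 41.5 FPKM in HFD and 81.6 FPKM in SZ-A. It fell in HFD against NC by 1.18 on the log2 scale (adjusted p = 0.012), and its difference of 0.66 ± 0.42 in SZ-A against HFD did not pass the test (adjusted p = 0.26).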
